A study of Mus musculus with 24 samples.

Results

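Neurotrophins are secreted growth factors that keep neurons alive and shape their connections, and skeletal muscle is a classical source of them for motor and sensory axons. Mature neurotrophins bind the Trk family of receptor tyrosine kinases, each with a preferred ligand, and all of them bind the p75 receptor. The uncleaved precursors bind a complex of p75 with sortilin, a receptor of the Vps10p family that also sorts proteins inside the cell.

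The genes described here are 7 of the 28109 rows in the deposited table: the ligands Bdnf and Ntf3 (neurotrophin 3), the receptors Ntrk2 (TrkB, which binds brain-derived neurotrophic factor), Ntrk3 (TrkC, which binds neurotrophin 3) and Ngfr (p75), Sort1 (sortilin), and Gfra1, which encodes the co-receptor that presents glial cell line-derived neurotrophic factor to the Ret kinase. Gfra1 thus belongs to a neighbouring trophic pathway and not to the neurotrophins in the strict sense. They were taken by gene name and were selected on measured expression values of these same libraries by siRNA, day and cell type, with no stated threshold. The tests given for them therefore describe these values and are not independent evidence.

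C2C12 cells, an established mouse myoblast line derived from the C3H strain, and primary myoblasts (PMs) from C57/B6 mice were transfected with siTead1/4, a mixture of siRNAs against the transcription factors Tead1 and Tead4, or with siControl, whose target the labels give as luciferase. The study's methods state that the PMs came from mice aged 3 to 4 weeks and grew on matrigel in another medium, so that strain, medium, substrate and origin of the cells cannot be told apart between the cell types. RNA was collected at day 0, when the cells were undifferentiated and had been transfected 24 h before, and at days 3 and 6 of differentiation in 2% horse serum. With 2 replicates, described as biological, for each of 12 groups, 24 libraries resulted.

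Gene counts summed to between 25453830 and 52784510 in the 12 C2C12 libraries and to between 32571583 and 51110723 in the 12 PM libraries. The labels do not say whether the replicates came from separate animals or cultures, so the p-values measure the spread between these libraries. Each level is in CPM, the count relative to the library size after TMM normalisation over all 24 libraries, or as CPM per kilobase of exon length where genes are compared with each other. A gene was called where the quasi-likelihood test of edgeR had an adjusted p below 0.05 and the log2 fold change exceeded 1 in size. The silenced gene Tead4 fell by 2.21 on the log2 scale at day 0 in C2C12 cells and by 2.36 in PMs, and Tead1 fell by 1.44 in PMs (edgeR, adjusted p = 0.036, 0.00026 and 0.021). For Tead1 in undifferentiated C2C12 cells the value was -2.46 with an SE of 0.66, which did not pass (edgeR, adjusted p = 0.17). The replicates differed there, with log2 differences for Tead1 of -1.29 in replicate 1 (70.5 CPM in siControl and 28.8 CPM in siTead1/4) and -4.64 in replicate 2 (113.0 and 4.50 CPM). By replicate number, the log2 differences of Tead1 in C2C12 cells were -0.51 and -1.56 at day 3 and -0.11 and -0.82 at day 6. In PMs they were -1.54 and -1.83, then -0.99 and -1.29. Those of Tead4 were -2.08 and -1.51, then -1.12 and -1.39, in C2C12 cells. In PMs they were -2.66 and -2.48, then -1.99 and -1.55. At day 6 both genes had thus fallen less in the C2C12 replicates than in the PM replicates. At day 0 the fitted fall of Tead1 was the larger one in C2C12 cells, and that of Tead4 was close in both. No test of these differences is given here, and equal silencing in the cell types cannot be assumed. Summed markers of muscle reached 557 to 13300 CPM in C2C12 libraries and 6260 to 21600 CPM in PM libraries, while 4 macrophage markers together stayed at or under 2.28 CPM in all 24 libraries and 4 endothelial markers at or under 13.8 CPM. The other lists were not near 0. The 6 fibroblast markers summed to 349 to 3260 CPM, mostly Col3a1, with the fibroblast factor Tcf21 at 0 in all 24 libraries, the 3 pericyte markers to 125 to 500 CPM, and the 6 neuron markers to 21.5 to 518 CPM, mostly Tubb3 and, in C2C12 cells, Stmn2.

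On mm9 the members lie at chromosome 2, 109514857 to 109567164 (Bdnf), chromosome 6, 126051431 to 126116762 (Ntf3), chromosome 13, 58907957 to 59235331 (Ntrk2), chromosome 7, 85337248 to 85723294 (Ntrk3), chromosome 11, 95430132 to 95449049 (Ngfr), chromosome 3, 108087009 to 108164429 (Sort1) and chromosome 19, 58310094 to 58530399 (Gfra1). All are protein coding. The library kit does not keep the strand, and 2 members overlap a non-coding gene of the other strand at one end, Sort1 with Gm12523 and Gfra1 with Gm16277.

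Windows of 250 bases directly before annotated transcription starts were taken from RefSeq (GRCm38.p6) and searched on both strands for CATTCC, the core of the MCAT element that Tead factors recognise, and for CAGCTG, an E-box of the kind that myogenic bHLH factors recognise. The 2 motifs share no overlapping match in the members. Among 32851 windows of this length for all genes, 12.6% held the MCAT core and 13.0% held the E-box. Of the members, 5 of 7 had a window (12 windows in all), and 3 windows held the MCAT core and 3 the E-box. No window is shown for Ntrk3 or Sort1. Shown are the window of Ngfr and those windows of Bdnf that hold the MCAT core, since Ngfr and Bdnf were the members called after silencing, and that of Gfra1, which holds both motifs. Capitals mark the matches, and the sequences run 5′ to 3′ in the direction of the gene.
Ngfr (chr11:95587699-95587948, strand -): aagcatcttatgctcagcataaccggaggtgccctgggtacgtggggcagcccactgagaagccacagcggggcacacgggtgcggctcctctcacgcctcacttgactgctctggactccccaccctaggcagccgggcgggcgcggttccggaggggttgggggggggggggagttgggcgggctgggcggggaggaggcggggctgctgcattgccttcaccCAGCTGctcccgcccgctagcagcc
Bdnf, window 2 (chr2:109676782-109677031, strand +): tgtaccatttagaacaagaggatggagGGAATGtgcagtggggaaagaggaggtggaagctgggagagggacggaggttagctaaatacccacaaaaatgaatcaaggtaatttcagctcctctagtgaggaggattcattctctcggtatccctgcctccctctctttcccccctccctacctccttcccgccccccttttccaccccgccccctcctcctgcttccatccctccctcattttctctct
Bdnf, window 7 (chr2:109722671-109722920, strand +): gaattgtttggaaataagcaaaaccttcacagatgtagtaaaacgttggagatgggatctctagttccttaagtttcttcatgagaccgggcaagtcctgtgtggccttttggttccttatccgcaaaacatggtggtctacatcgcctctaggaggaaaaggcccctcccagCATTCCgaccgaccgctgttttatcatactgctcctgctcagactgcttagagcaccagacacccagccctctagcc
Gfra1 (chr19:58455399-58455648, strand -): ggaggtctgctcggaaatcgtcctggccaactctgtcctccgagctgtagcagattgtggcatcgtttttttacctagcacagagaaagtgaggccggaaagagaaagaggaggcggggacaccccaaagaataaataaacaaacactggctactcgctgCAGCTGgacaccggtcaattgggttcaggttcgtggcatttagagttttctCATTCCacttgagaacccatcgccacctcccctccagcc
The Ngfr window had an E-box that began 25 bases before the start and no MCAT core. Bdnf has 7 windows, of which the second in chromosomal order holds the MCAT core on the opposite strand, 223 bases before its start, and the seventh holds it 77 bases before its start. In Gfra1 the MCAT core began 39 bases before the start and the E-box 90 bases before it. The study gives the whole MCAT element as this core followed by A or T. The core in Gfra1 is followed by A, while neither core in Bdnf is followed by A or T. These matches describe the letters only, and gene counts do not tell which of the Bdnf starts was in use.

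Of the ligands, Bdnf was measured in both cell types, while Ntf3 had at most 3 counts in any library. Bdnf, which encodes the ligand of TrkB, was higher in C2C12 cells than in PMs before differentiation, and the difference no longer passed the test at day 6. In siControl C2C12 cells Bdnf was at 29.2 and 27.1 CPM at day 0, 26.9 and 18.3 CPM at day 3 and 28.0 and 17.9 CPM at day 6. In siControl PMs Bdnf was at 2.56 and 3.92 CPM at day 0, 5.33 and 4.17 CPM at day 3 and 17.0 and 16.2 CPM at day 6. All C2C12 values thus lay above all PM values, at day 6 by a narrow margin. In PMs Bdnf rose by 2.30 on the log2 scale from day 0 to day 6 (SE 0.25, edgeR, adjusted p = 1.8e-05), and by 1.8 from day 3 to day 6 (SE 0.24, edgeR, adjusted p = 0.0046). The change of 0.50 from day 0 to day 3 did not pass the test (edgeR, adjusted p = 0.10). In C2C12 cells the log2 fold changes were -0.36 at day 3 and -0.33 at day 6 against day 0, and neither passed (edgeR, adjusted p = 0.45 and 0.49). The PM change to day 6 minus the C2C12 change was 2.66 (SE 0.47, edgeR, adjusted p = 0.00075). The PM level minus the C2C12 level was -3.12, -2.25 and -0.47 on the log2 scale at days 0, 3 and 6 (edgeR, adjusted p = 2.1e-06, 5.0e-05 and 0.27). Left without siControl replicate 1 or 2, the rise between days 3 and 6 in PMs was 1.95 or 1.66 and lost its call (edgeR, adjusted p = 0.087 and 0.09).

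Bdnf rose on silencing in undifferentiated PMs. PMs with siTead1/4 had 6.39 and 9.56 CPM at day 0, both above both siControl values. The log2 fold change was 1.30 (SE 0.24, edgeR, adjusted p = 0.012), a rise of 2.46-fold, seen as 1.30 and 1.28 when libraries of the same replicate number were compared. At day 3 Bdnf in siTead1/4 PMs was at 6.05 and 5.50 CPM and at day 6 at 15.0 and 14.3 CPM, with log2 fold changes of 0.28 and -0.18 that did not pass (edgeR, adjusted p = 0.56 and 0.86). At day 6 the siControl libraries were the higher ones. The silencing effect at day 6 minus that at day 0 was -1.48 (SE 0.33, edgeR, adjusted p = 0.072), and it passed in a fit blocked on replicate number, which pairs the PM libraries, at -1.48 (edgeR, adjusted p = 0.033). The call at day 0 was lost without siControl replicate 1 (1.02, edgeR, adjusted p = 0.15), without siTead1/4 replicate 2 (0.99, edgeR, adjusted p = 0.14) and in the fit of all 24 libraries (1.31, edgeR, adjusted p = 0.058).

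In C2C12 cells the values of Bdnf after siTead1/4 were 35.6 and 23.8 CPM at day 0, 55.6 and 40.5 CPM at day 3, and 44.9 and 23.2 CPM at day 6. The groups were apart at day 3, where both siTead1/4 libraries exceeded both siControl libraries, and overlapped at days 0 and 6. The fitted log2 changes were 0.08, 1.07 and 0.57 (edgeR, adjusted p = 0.98, 0.20 and 0.87), so no day was called. The silencing effect on Bdnf in PMs minus that in C2C12 cells was 1.23 at day 0 and -0.81 at day 3, and neither difference passed (edgeR, adjusted p = 0.99 and 0.50).

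Ntf3, the ligand of TrkC, had 0 counts in each of the 12 C2C12 libraries. In PMs it had 0 counts in 8 of 12 libraries and at most 3 counts in the others. A floor of 3 counts, chosen for this description, corresponds to 0.0533 to 0.110 CPM in these libraries. Levels under it rest on so few counts that their size is uncertain. Ntf3 did not pass the filter on low counts and was not tested.

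**Figure D1:**
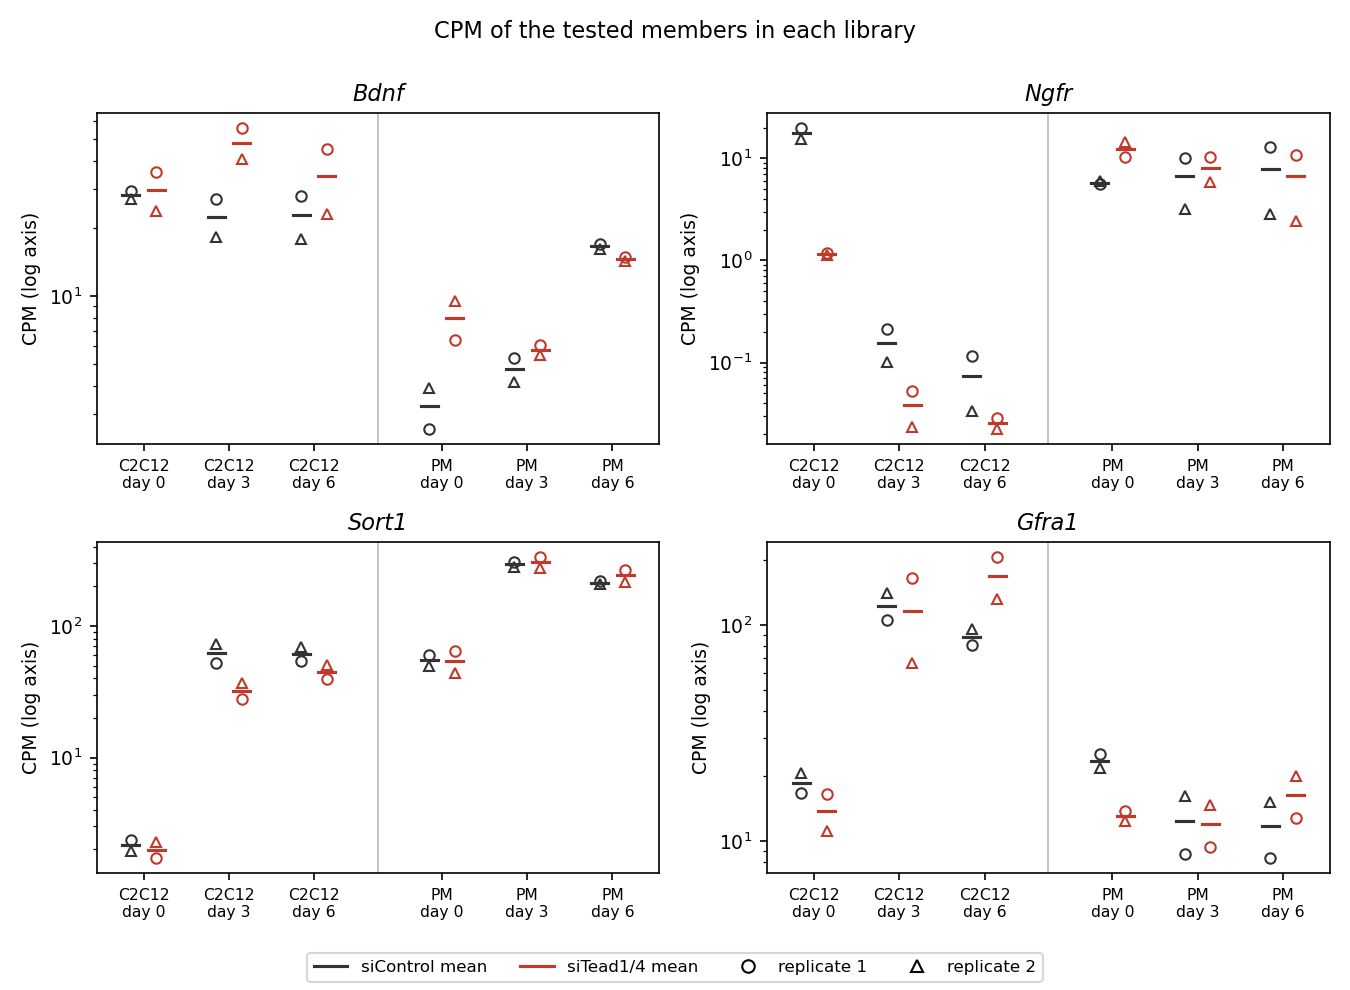
CPM (log axis) of Bdnf, Ngfr, Sort1 and Gfra1 in each of the 24 libraries by cell type and day, with siControl in dark grey and siTead1/4 in red. Circles are replicate 1, triangles replicate 2 and bars group means; Ngfr in C2C12 cells drops from 19.7 and 15.5 CPM in the siControl libraries of day 0 to 1.17 and 1.13 CPM with siTead1/4.

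The Trk kinase receptors among the members had at most 8 counts in any library. Ntrk2, the kinase that binds the Bdnf product, had at most 3 counts in any C2C12 library, with 8 of 12 at 0, and at most 7 counts in any PM library. The PM libraries with 7 counts were replicate 1 of siControl and replicate 1 of siTead1/4 at day 6, against 2 counts and 1 count in replicate 2. Ntrk3 had at most 6 counts in C2C12 libraries and at most 8 counts in PM libraries. At day 3 Ntrk3 had 5 and 8 counts in siTead1/4 PMs and 0 counts in both siControl libraries. The siTead1/4 mean, on these few counts, was 1.92 times the floor. Neither receptor passed the filter on low counts, and neither was tested. Per length, the highest mean of a siControl group was 0.00966 CPM per kilobase for Ntrk2 (PMs at day 6) and 0.0145 CPM per kilobase for Ntrk3 (C2C12 cells at day 6).

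Ngfr, which encodes the p75 receptor shared by all neurotrophins, was the member with the largest changes. In siControl C2C12 cells Ngfr was at 19.7 and 15.5 CPM at day 0, 0.212 and 0.101 CPM at day 3, and 0.116 and 0.0334 CPM at day 6. The last 4 values rest on 9, 5, 6 and 1 counts, far below the 2 values of day 0. Ngfr fell by 6.85 on the log2 scale at day 3 (SE 0.46, edgeR, adjusted p = 5.5e-06) and fell by 7.71 at day 6 (SE 0.50, edgeR, adjusted p = 3.6e-06). With so few counts the size of the day 6 fall is uncertain, being -8.76 when siControl replicate 1 was left out and -7.40 when siControl replicate 2 was. The summed neuron markers went down in the same libraries, their sum being 419, 108 and 135 CPM in replicate 1 on days 0, 3 and 6 and lower on both later days in replicate 2 too, while the neuronal genes Snap25 and Rbfox3 had at most 5 and 2 counts in any library.

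In PMs Ngfr did not follow that course. SiControl PMs had 5.55 and 6.06 CPM at day 0, 10.2 and 3.16 CPM at day 3, and 12.9 and 2.84 CPM at day 6. Replicate 1 was above and replicate 2 below the values of day 0 on both later days, so the replicates disagreed on the direction. Compared within a replicate number, the log2 difference to day 0 was 0.87 at day 3 and 1.21 at day 6 in replicate 1, and -0.93 and -1.08 in replicate 2. The fitted changes were 0.14 and 0.37 (edgeR, adjusted p = 0.89 and 0.69). The change in PMs minus that in C2C12 cells was 7.01 at day 3 (SE 1.10, edgeR, adjusted p = 0.00032) and 8.10 at day 6 (SE 1.19, edgeR, adjusted p = 0.00014). Ngfr in PMs was lower than in C2C12 cells at day 0 by a log2 difference that missed the test (-1.60, edgeR, adjusted p = 0.061) but passed it without the filter on low counts (-1.60, edgeR, adjusted p = 0.00056), and was 5.41 and 6.50 higher on the log2 scale at days 3 and 6 (edgeR, adjusted p = 0.00011 and 6.6e-05).

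After silencing, Ngfr fell in undifferentiated C2C12 cells. C2C12 cells with siTead1/4 had 1.17 and 1.13 CPM at day 0, a level far under both siControl values of that day. The log2 fold change was -3.93 (SE 0.39, edgeR, adjusted p = 0.010), a fall of 15.2-fold. Both replicate numbers gave a fall, of -4.01 and -3.71. Without siControl replicate 1 the value was -3.74 and without siControl replicate 2 it was -4.10. The call was lost each time, in fits that left 1 siControl library per group and lost most calls over all genes. Leaving out siTead1/4 replicate 1 or 2 instead kept the call, at -3.96 and -3.93. On days 3 and 6 Ngfr had 1 or 2 counts in the siTead1/4 C2C12 libraries. The siControl mean of day 3, itself on few counts, was 2.11 times the floor of 3 counts. The fitted values of -1.99 and -1.61 did not pass (edgeR, adjusted p = 0.20 and 0.82).

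In PMs no change of Ngfr was called after silencing. PMs with siTead1/4 had 10.3 and 14.4 CPM at day 0, both above both siControl values, 10.4 and 5.83 CPM at day 3, and 10.9 and 2.45 CPM at day 6. The log2 fold changes of 1.08, 0.28 and -0.23 had SEs of 0.76, 0.76 and 0.77 and none passed (edgeR, adjusted p = 0.44, 0.88 and 0.96). The silencing effect at day 0 in PMs minus that in C2C12 cells was 5.01 (SE 0.98). Matched by replicate number it was 4.89 and 4.96, though the labels do not link PM with C2C12 libraries of one number. The unadjusted edgeR p of the fitted difference was 9.1e-05, and it missed the threshold after adjustment over 16926 genes (edgeR, adjusted p = 0.20). The same difference passed by DESeq2 at 5.02 (adjusted p = 0.0014), without the filter on low counts at 5.03 (edgeR, adjusted p = 3.2e-09) and with the replicate block at 5.10 (edgeR, adjusted p = 0.049), so whether the cell types differed in this respect depends on the test.

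**Figure D2:**
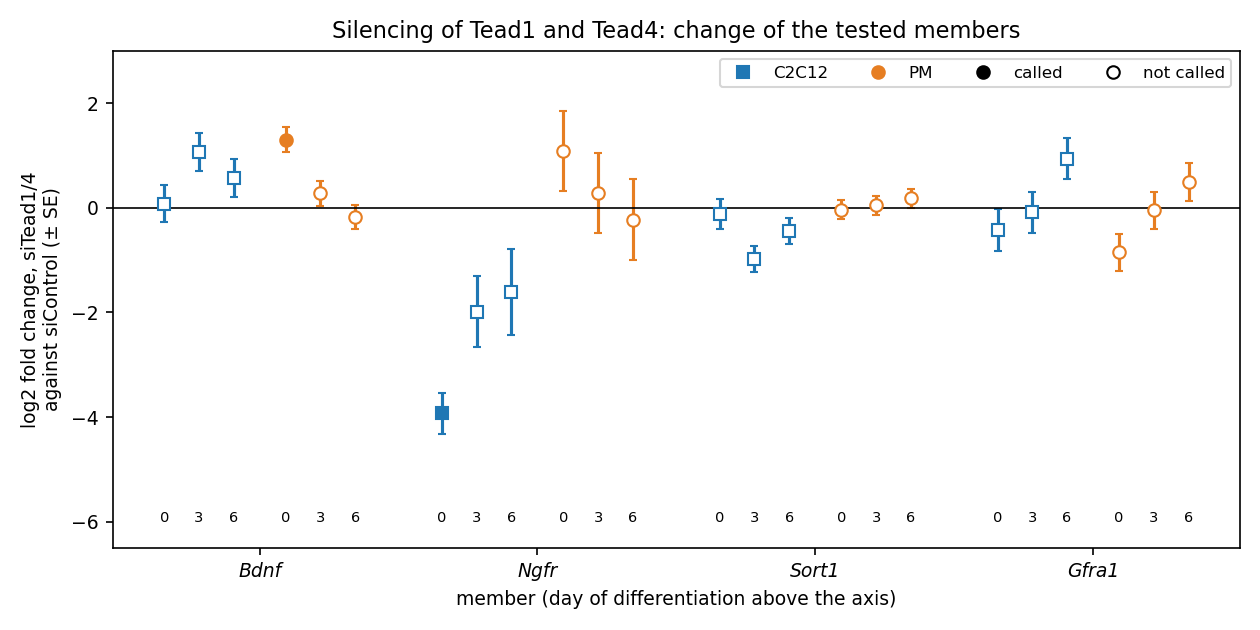
Log2 fold change of siTead1/4 against siControl (points) with its SE (bars) for the tested members at days 0, 3 and 6, in C2C12 cells (squares) and PMs (circles). Filled points were called: Ngfr at day 0 in C2C12 cells (-3.93) and Bdnf at day 0 in PMs (1.30).

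On days 3 and 6 Ngfr in PMs split by replicate number in the same direction as several markers of Schwann cells, a cell type that expresses p75. At day 0 it did not, since replicate 2 had the higher Ngfr value with either siRNA. The 8 markers together reached 12.3 to 22.3 CPM in the 6 PM libraries of replicate 1 and 3.78 to 13.4 CPM in those of replicate 2, against 1.87 to 7.47 CPM in the C2C12 libraries. Sox10, a defining transcription factor of that lineage, was at 1.10 to 4.01 CPM in replicate 1 and 0.0505 to 0.359 CPM in replicate 2. Cdh19 was at 0.975 to 4.56 CPM in replicate 1 and 0.0652 to 0.186 CPM in replicate 2, and at 0 in all C2C12 libraries. On days 3 and 6 the ratio of replicate 1 to replicate 2 within a group was 1.79 to 4.55 for Ngfr and 8.25 to 59.9 for Sox10 over the 4 groups. Gfap, which belongs to the same list, showed no such split, with ratios of 0.555 to 2.79. The 4 endothelial markers split in the same direction, at 4.62 to 13.8 CPM in replicate 1 and 2.79 to 5.12 CPM in replicate 2. The part of these cell types in the Ngfr values of PMs was not tested. In a bulk sample fewer cells of a type and less RNA per cell cannot be told apart.

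**Figure D3:**
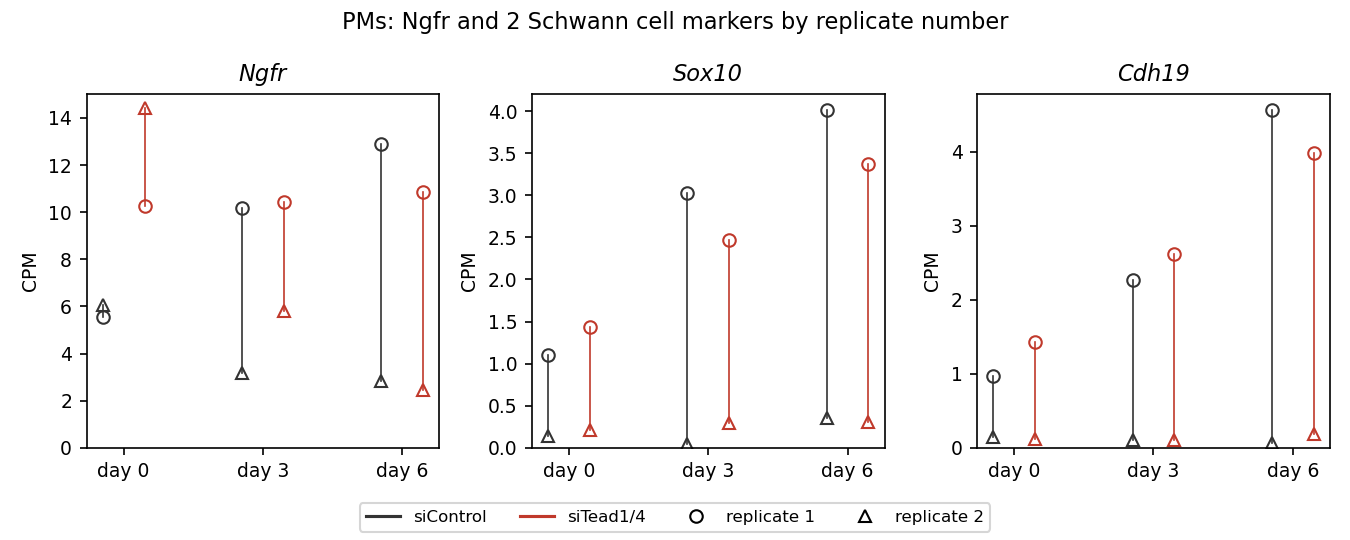
CPM (linear axis from 0) of Ngfr and of the Schwann cell markers Sox10 and Cdh19 in the 12 PM libraries by day, siRNA (colour) and replicate number (circle, replicate 1; triangle, replicate 2), with a line that joins the replicates of a group. Replicate 1 was above replicate 2 in every group for Sox10 and Cdh19, and for Ngfr in all 4 groups of days 3 and 6 but not at day 0.

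Sort1, the sorting receptor that also receives pro-neurotrophins together with p75, rose with differentiation in both cell types. In siControl C2C12 cells Sort1 was at 2.36 and 1.94 CPM at day 0, 52.3 and 72.7 CPM at day 3, and 53.9 and 69.4 CPM at day 6. SiControl PMs had 60.5 and 49.9 CPM at day 0, 308.7 and 280.3 CPM at day 3, and 221.3 and 207.3 CPM at day 6. The levels of undifferentiated PMs overlapped those of differentiated C2C12 cells. Sort1 rose in C2C12 cells by 4.83 at day 3 and 4.80 at day 6 on the log2 scale (SE 0.30 each, edgeR, adjusted p = 4.3e-06 and 3.1e-06). The rise in PMs was 2.36 at day 3 and 1.89 at day 6 (SE 0.19 each, edgeR, adjusted p = 2.9e-06 and 1.0e-05). The PM rise minus the C2C12 rise was -2.45 and -2.89 (SE 0.33 each, edgeR, adjusted p = 7.9e-05 and 1.2e-05). PMs exceeded C2C12 cells by 4.69, 2.24 and 1.8 on the log2 scale at days 0, 3 and 6 (edgeR, adjusted p = 8.3e-10, 1.1e-06 and 1.3e-05). The day 6 minus day 3 change in PMs was -0.47 and did not pass (edgeR, adjusted p = 0.16).

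After siTead1/4, Sort1 in C2C12 cells was at 1.72 and 2.27 CPM at day 0, 27.8 and 36.7 CPM at day 3, and 39.4 and 50.2 CPM at day 6. On days 3 and 6 both silenced libraries were below both siControl libraries. The log2 fold changes of -0.98 at day 3 (SE 0.25) and -0.45 at day 6 (SE 0.25) did not pass (edgeR, adjusted p = 0.099 and 0.83). SiTead1/4 PMs had 64.3 and 44.1 CPM at day 0, 333.9 and 277.4 CPM at day 3, and 267.1 and 217.7 CPM at day 6. These overlapped the siControl values on every day, and the log2 fold changes were -0.04, 0.05 and 0.18 with an SE of 0.18 each (edgeR, adjusted p = 0.93, 0.92 and 0.81). The silencing effect at day 3 in PMs minus that in C2C12 cells was 1.01 (SE 0.32, edgeR, adjusted p = 0.14).

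Gfra1, the co-receptor of the neighbouring GDNF pathway, moved in opposite directions in the 2 cell types. In siControl C2C12 cells Gfra1 was at 16.7 and 20.7 CPM at day 0, 104.9 and 139.8 CPM at day 3, and 80.6 and 96.1 CPM at day 6. SiControl PMs had 25.2 and 21.7 CPM at day 0, 8.70 and 16.1 CPM at day 3, and 8.34 and 15.1 CPM at day 6. The levels of the cell types were close at day 0 and far apart afterwards. Gfra1 rose in C2C12 cells by 2.67 at day 3 (SE 0.42, edgeR, adjusted p = 0.00079) and by 2.20 at day 6 (SE 0.41, edgeR, adjusted p = 0.0019). The day 6 call in C2C12 cells was lost without siControl replicate 1 or 2, at 2.18 and 2.25 (edgeR, adjusted p = 0.075 and 0.058). In PMs Gfra1 fell by 1.07 at day 6 (SE 0.36, edgeR, adjusted p = 0.024). At day 3 the change of -0.97 in PMs had an adjusted p of 0.036 by edgeR and a size just under the threshold. Without siControl replicate 1 the PM values were -0.48 at day 3 and -0.58 at day 6 (edgeR, adjusted p = 0.35 and 0.25), and without siControl replicate 2 the day 3 value was -1.59 (edgeR, adjusted p = 0.013). The day 6 call was also lost in the fit of all 24 libraries (edgeR, adjusted p = 0.053). With the replicate block the day 3 value was -1.05 and passed (edgeR, adjusted p = 0.0046). The change in PMs minus that in C2C12 cells was -3.63 at day 3 (SE 0.59, edgeR, adjusted p = 0.00043) and -3.24 at day 6 (SE 0.59, edgeR, adjusted p = 0.00098). The PM level of Gfra1 minus the C2C12 level was -3.30 and -2.91 on the log2 scale at days 3 and 6 (edgeR, adjusted p = 1.5e-05 and 6.2e-05), and 0.33 at day 0, which did not pass (edgeR, adjusted p = 0.56).

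Silencing gave no called change of Gfra1. SiTead1/4 C2C12 cells had 16.5 and 11.2 CPM at day 0, 165.7 and 66.7 CPM at day 3, and 205.7 and 132.2 CPM at day 6. The replicates of day 3 lay on either side of the siControl values, while at day 6 both were above them. The fitted log2 changes were -0.43, -0.09 and 0.94 (edgeR, adjusted p = 0.80, 0.96 and 0.69). SiTead1/4 PMs had 13.9 and 12.4 CPM at day 0, 9.40 and 14.7 CPM at day 3, and 12.8 and 20.1 CPM at day 6. At day 0 both lay below the siControl libraries, with a log2 fold change of -0.85 (SE 0.35, edgeR, adjusted p = 0.18), and the values of the other days overlapped.

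Per length, the order of the members differed between the cell types. At day 0 siControl C2C12 cells had 5.11 ± 0.863 CPM per kilobase of Ngfr (SD, n = 2), 4.52 ± 0.235 of Bdnf, 3.41 ± 0.519 of Gfra1 and 0.284 ± 0.0400 of Sort1. The ranges of Ngfr and Bdnf overlapped there, and Gfra1 and Sort1 each lay below the one before. By day 6 in C2C12 cells Gfra1 came first with 16.1 ± 2.00 CPM per kilobase, followed by Sort1 with 8.15 ± 1.45, Bdnf with 3.69 ± 1.14 and Ngfr with 0.0216 ± 0.0169. In siControl PMs Sort1 was the highest member on each day, with 7.30 ± 0.992, 39.0 ± 2.65 and 28.3 ± 1.32 CPM per kilobase at days 0, 3 and 6. At day 6 in PMs Bdnf, Ngfr and Gfra1 followed at 2.68 ± 0.0919, 2.28 ± 2.07 and 2.14 ± 0.875 CPM per kilobase, and their ranges overlapped.

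**Figure D4:**
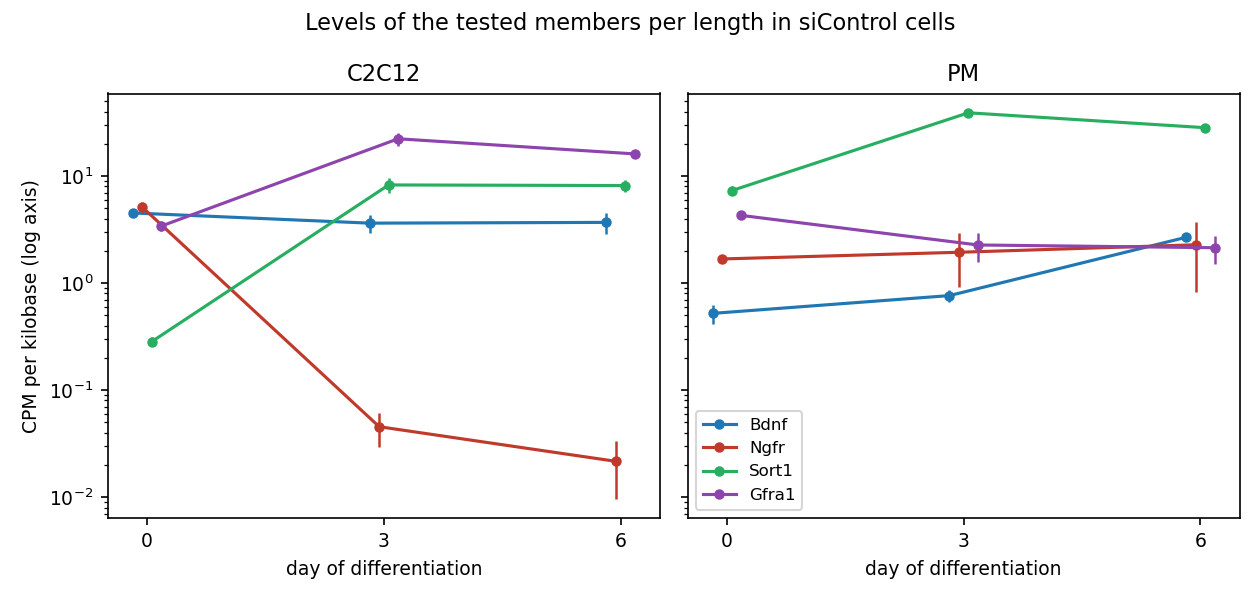
Level per length (CPM per kilobase of exon, log axis) of the tested members in siControl cells at days 0, 3 and 6, in C2C12 cells (left) and PMs (right). Points are means of 2 libraries and bars span both; Sort1 is the highest member in PMs on each day, and Ngfr in C2C12 cells falls to 0.0216 CPM per kilobase at day 6.

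Counts over the members are read against all tested genes. Of the 7 members, 4 passed the filter on low counts in each cell type. After silencing, 1 of 12 member tests was called in C2C12 cells, Ngfr in the lower direction, where 0.586% of all gene tests were called (0.113% higher and 0.473% lower). In PMs 1 of 12 was called, Bdnf in the higher direction, where 2.21% of all tests were called (1.35% higher and 0.859% lower). With differentiation 6 of 12 member tests were called in C2C12 cells, 4 higher and 2 lower, beside 19.9% of all tests. In PMs 5 of 12 were called, 4 higher and 1 lower, beside 23.5% of all tests. With the replicate block the silencing calls over all genes in PMs moved from 1072 to 1668, and those between days from 154 to 612.

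The change with day differed between the cell types in 7 of 8 member tests, beside 12% of all tests, and the siControl level differed between PMs and C2C12 cells in 9 of 12, beside 27.2% of all tests. The silencing effect differed between the cell types in 0 of 12 member tests by edgeR, 3 of which had an unadjusted p under 0.05, beside 0.431% of all tests, and DESeq2 called 1. Between days it differed in 0 of 8 member tests in PMs by edgeR, 3 of which had an unadjusted p under 0.05, beside 0.477% of all tests, and DESeq2 called 1. In C2C12 cells edgeR called 0 of 8 member tests between days, 2 with an unadjusted p under 0.05, beside 0% of all 30606 tests (3043 with an unadjusted p under 0.05), and DESeq2 called 0 member tests and 487 over all genes.

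The other genes of the pathway came from fixed lists of ligands, receptors, adaptors, p75 partners and processing proteases, 43 genes beside the members. After silencing, 38 of them were tested in C2C12 cells with 2 of 114 tests called higher and 0 lower, and a median log2 fold change of 0.03 against 0.013 over all genes. In PMs 39 were tested with 4 of 117 called higher and 0 lower, and a median of 0.04 against 0 over all genes. All of these 6 calls belong to 2 genes. Unlike the calls of the members, they were not checked with a replicate left out or in another fit. The 14 adaptors and effectors of Trk signalling and the 5 proteases that process the precursors had no call after silencing in either cell type.

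Lingo1, a membrane partner of p75 in the receptor complex for myelin inhibitors, rose on silencing in both cell types. In C2C12 cells it was at 0.920 and 1.11 CPM in siControl and 5.32 and 5.02 CPM in siTead1/4 libraries at day 3, and at 1.39 and 2.04 CPM against 8.36 and 10.0 CPM at day 6. In PMs it was at 8.47 and 11.8 CPM against 38.9 and 71.8 CPM at day 3, and at 25.0 and 32.4 CPM against 68.6 and 109.9 CPM at day 6. The groups did not overlap on these days. The fitted log2 changes were 2.31 and 2.44 in C2C12 cells (SE 0.32 each, edgeR, adjusted p = 0.015 and 0.045), and 2.43 and 1.64 in PMs (SE 0.33 and 0.32, edgeR, adjusted p = 0.0023 and 0.039). At day 0 the log2 fold changes of Lingo1 were -0.66 and 0.60 and did not pass (edgeR, adjusted p = 0.60 and 0.34).

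Gfra2, the co-receptor for neurturin, rose on silencing in PMs. It was at 9.48 and 6.37 CPM in siControl and 18.9 and 17.9 CPM in siTead1/4 PMs at day 3, and at 3.98 and 3.03 CPM against 9.52 and 9.52 CPM at day 6. Both siTead1/4 libraries were above both siControl libraries on each of these days. The fitted log2 changes were 1.21 and 1.44 (SE 0.20 and 0.21, edgeR, adjusted p = 0.0068 and 0.013). In C2C12 cells the values for Gfra2 on these days were -0.04 and 0.16 (edgeR, adjusted p = 0.98 and 0.97), and whether the cell types differed is not shown by that.

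Of the other ligands, Ntf5, the gene of neurotrophin 4, another ligand of TrkB, was at 0.127 and 0.310 CPM in siControl PMs at day 0, 3.42 and 3.24 CPM at day 3 and 8.86 and 7.92 CPM at day 6. Ntf5 rose in PMs by 5.24 on the log2 scale to day 6 (SE 0.39, edgeR, adjusted p = 1.5e-06), so that both ligands of TrkB rose with differentiation of PMs while its receptor stayed at a few counts.

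Ret, the kinase that Gfra1 serves, went the other way from its co-receptor in C2C12 cells. Ret was at 10.7 and 11.5 CPM in siControl C2C12 cells at day 0 and 0.636 and 0.936 CPM at day 6, with a log2 fold change of -3.88 (SE 0.40, edgeR, adjusted p = 5.6e-05). In siControl PMs Ret was at 5.93 and 6.62 CPM at day 0 and 6.69 and 7.01 CPM at day 6, and the change of 0.06 did not pass (edgeR, adjusted p = 0.83). Ncam1, another partner of Gfra1, rose by 2.59 on the log2 scale in C2C12 cells to day 3 (edgeR, adjusted p = 1.9e-05) and by 1.13 in PMs (edgeR, adjusted p = 0.00025).

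**Figure D5:**
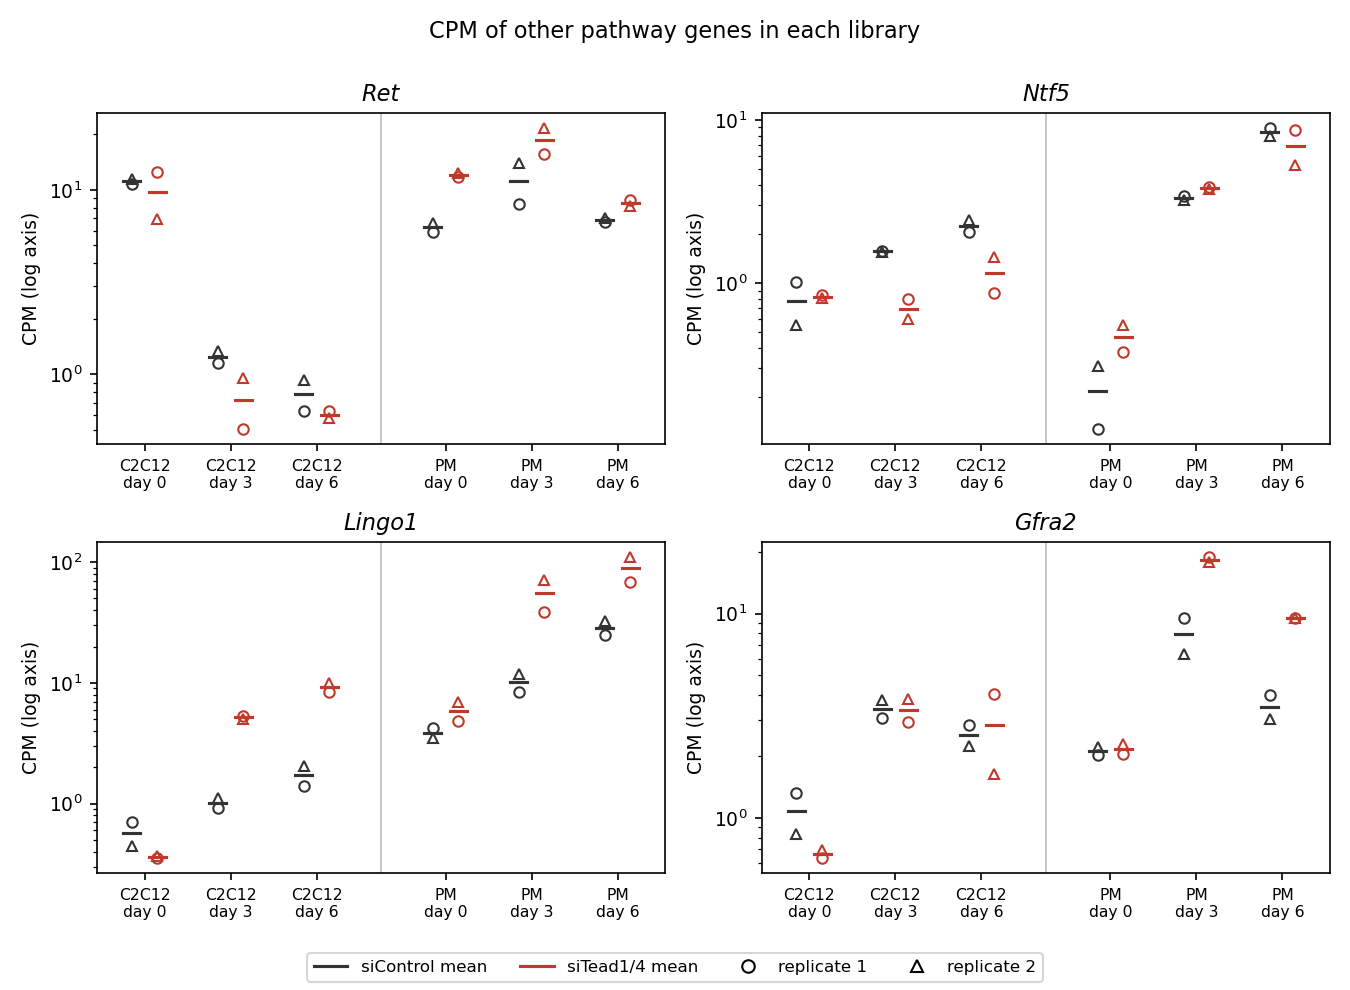
CPM (log axis) of Ret, Ntf5, Lingo1 and Gfra2 in each of the 24 libraries by cell type and day, with siControl in dark grey, siTead1/4 in red, circles for replicate 1, triangles for replicate 2 and bars for means. Lingo1 at days 3 and 6 is higher with siTead1/4 in both cell types, and Ret in siControl C2C12 cells falls from 10.7 and 11.5 CPM at day 0 to 0.636 and 0.936 CPM at day 6.

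The pattern over the 24 libraries was compared with that of 16925 other genes by Pearson's r of log2 CPM, as a description, since these libraries share cell type, day and siRNA. The genes most like Sort1 were Fsd2 and Atp2a1, the fast-muscle calcium pump, with r of 0.993 each. Most like Bdnf were Cpne8 and Gabarapl1 (r of 0.946 and 0.942), most like Ngfr were Akap12 and Ptprn (0.943 and 0.941), and most like Gfra1 were Ramp2 and Ppt1 (0.962 and 0.947). Among the members r was -0.90 between Ngfr and Gfra1 and -0.59 between Bdnf and Ngfr.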

How the data were processed

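RNA-seq of polyadenylated RNA was available for 24 libraries in 12 groups of 2 replicates. The authors deposited 1 table of raw counts per gene on mm9; the submitters' processing notes name CASAVA 1.8.2, TopHat2 2.0.10, Bowtie2 2.1.0, HTSeq 0.6.1 and DESeq2 1.8.1, and the library kit does not keep the strand. The deposited columns divided by size factors were not used, nor were 36 columns of 12 libraries that are not among the listed samples. Members and lists were chosen with earlier results of these data known.

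Counts were tested in R 4.3.3 with edgeR 4.0.16 (filterByExpr, TMM, glmQLFit and glmQLFTest) with 1 mean per group, in 12 libraries for each cell type (15303 genes in C2C12 cells, 16144 in PMs) and in all 24 (16926) for differences between cell types. P-values were Benjamini-Hochberg adjusted over the genes of each contrast. SEs are the log2 fold change over the root of its F. Log2 differences by replicate number used a pseudocount of 0.05 CPM, and log2 CPM for correlations a prior count of 2. Named genes are all members, the fixed-list genes called after silencing or near 0, the 2 most similar genes per tested member, and Tead1 and Tead4; Ntf5, Ret, Ncam1, Sox10, Cdh19 and Gfap were named after their values were seen. Some genes of the fixed lists are not reported here. DESeq2 1.42.0, other size factors, no filter, a replicate block, all libraries in one fit and leaving out replicates were the alternatives. The fits were tested on simulated data. Replicates correlated at 0.981 to 0.993 on log2 CPM, and no pair agreed within sampling noise. Deviations from group means of same-numbered PM libraries of one day correlated at 0.414, 0.443 and 0.539 between siRNAs, so the numbers pair the PM libraries for silencing; in C2C12 cells the values were -0.142, 0.095 and 0.525.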

Additional observations from a re-analysis of the deposited data

Results flagged for a closer look

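In 7 results the change with day differed between the cell types by an interaction term in the 24 libraries. For Ngfr the PM change minus the C2C12 change was 7.01 at day 3 and 8.10 at day 6, for Sort1 -2.45 and -2.89, for Gfra1 -3.63 and -3.24, and for Bdnf 2.66 at day 6 (edgeR, adjusted p at most 0.00098). Within replicate numbers 1 and 2 the same differences at day 6 were 8.11 and 6.46 for Ngfr and -2.61 and -3.07 for Sort1. They were -3.86 and -2.74 for Gfra1 and 2.77 and 2.63 for Bdnf. The labels do not link PM with C2C12 libraries of one number, so this matching is arbitrary. For Ngfr the C2C12 values behind the difference rest on 1 to 9 counts per library at days 3 and 6. The PM values of those days split by replicate number beside Sox10 and Cdh19, whose part was not tested. Cell type, strain and culture conditions cannot be told apart in any of them.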

How the results depend on the processing

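Calls over the members moved as follows. Silencing in C2C12 cells gave 1 call and 2 without the filter on low counts or with the replicate block, Bdnf at day 3 being the added one (1.07, edgeR, adjusted p = 0.0034 and 0.041), and 0 to 1 with a replicate left out. Silencing in PMs gave 1 call, 0 in the fit of all 24 libraries and 0 to 1 with a replicate left out. Differences of silencing between cell types gave 0 calls, 1 by DESeq2, 2 without the filter (Ngfr at day 0 and Sort1 at day 3) and 1 with the replicate block. Between days in C2C12 cells there were 0 calls and 1 without the filter (Gfra1). Between days in PMs there were 0 calls, 1 by DESeq2, 2 without the filter and 1 with the replicate block. Levels in PMs against C2C12 cells gave 9 calls and 11 without the filter, Ngfr at day 0 among those added. With a replicate left out, differentiation in C2C12 cells gave 5 to 6 calls in place of 6 (Gfra1 at day 6 lost), differentiation in PMs 3 to 5 in place of 5, and its difference between cell types 4 to 7 in place of 7; without siControl replicate 1 the Bdnf difference at day 6 was 2.65 and those of Gfra1 were -3.19 and -2.74 (edgeR, adjusted p = 0.068, 0.087 and 0.14), and without siControl replicate 2 that of Sort1 at day 3 was -2.10 (edgeR, adjusted p = 0.058). Of results that were not called, 3 changed sign when a replicate number was left out of every group of one siRNA. The silencing difference between cell types of Gfra1 at day 6 ranged from -1.11 to 0.17, with the highest value without siTead1/4 replicate 1. The silencing effect on Ngfr in PMs at days 3 and 6 minus day 0 ranged from -1.51 to 0.34 and from -2.98 to 0.20, with the highest values without siControl replicate 1. DESeq2 size factors in edgeR changed no call of a member. Over 15 pairs of groups the deviations of same-numbered libraries correlated at over 0.1 in 6 pairs in C2C12 cells and 14 in PMs, so the numbers are not shown to pair the C2C12 libraries. Beside the results above, the block added Gfra1 at day 3 in PMs (-1.05, edgeR, adjusted p = 0.0046), and it ended no call.

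Over all genes, silencing in C2C12 cells gave 269 calls, 993 by DESeq2, 1922 without the filter and 1023 in the fit of all libraries; in PMs it gave 1072 calls, 1717 without the filter, 1668 with the block and 576 in the fit of all libraries. Between days there were 0 calls in C2C12 cells, 487 by DESeq2, 1063 without the filter, 6 with the block and 551 in the fit of all libraries, and 154 in PMs, 563 by DESeq2, 786 without the filter, 612 with the block and 8 in the fit of all libraries. Silencing by cell type gave 219 calls, 585 by DESeq2, 1087 without the filter and 366 with the block. With a replicate left out, the calls over all genes ranged from 2 to 1173 for silencing in C2C12 cells, 305 to 590 in PMs and 8 to 646 between cell types, from 0 to 731 between days in C2C12 cells and 0 in PMs, from 3199 to 9972 for differentiation in C2C12 cells, 1107 to 4531 for its difference between cell types and 8102 to 14411 between cell types. The causes were not tested. With 2 replicates a group, leaving 1 out assumes that the lone library varies like the other groups.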
